A study of Mus with 15 samples.

Results

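The HoxB cluster comprises 10 homeobox genes, Hoxb1 to Hoxb9 and Hoxb13, out of 49943 mouse genes to which the peaks of this series were compared. The mark studied was histone H2A carrying a single ubiquitin (H2Aub), profiled by ChIPmentation, which is chromatin immunoprecipitation with adapters inserted by a transposase on the beads. A peak belonged to a member when it overlapped the gene body or the 5 kb on either side of it, and this gave 319 of the 278739 peaks in 11 lists. The cluster was also read as an interval from the first to the last member, chr11:96194316-96368254 in the mm10 assembly, 173939 bp long.

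All samples were pooled thalami of mice aged 2 to 4 months. Controls carried the Maged1 Loxp allele and are termed WT, and Maged1cKO mice (cKO) had Maged1 deleted by a Cre recombinase driven by the Vglut2 promoter, so that deletion was limited to cells that use this promoter. After 3 days of saline, mice received 5 days of intraperitoneal cocaine (20 mg/kg) or of saline. After cocaine there were 3 libraries of WT and 2 of cKO, and after saline there were 3 of each. The labels give 3 to 4 thalami per sample and the methods of the study allow fewer, and the study describes the replicates of each condition as independent.

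Hox genes encode homeodomain transcription factors that give segments of the embryo their identity along the head-to-tail axis. Within a cluster the genes lie in the order in which they are used, with Hoxb1 at the end expressed earliest and furthest towards the head, and Hoxb13 at the end used in the tail. Where Hox genes are silent, as is known for the forebrain from which the thalamus forms, their clusters are textbook targets of the Polycomb repressive complexes, and H2Aub is the mark deposited by Polycomb repressive complex 1.

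The 11 lists differed widely in length, from 7271 to 80713 peaks and from 4.24 to 27.6 Mb covered, and held no read counts, so the depth of each library is unknown. The cKO cocaine and cKO saline libraries numbered 1 stood apart, with 54653 and 80713 peaks and a highest fold enrichment of 31.2 and 52.6, against 5.98 to 12.2 in the other 9 lists. The main comparisons below that include them are given with and without them. Peak lists carry neither expression nor sequence reads, so that neither the tissue nor the Maged1 deletion could be checked in them.

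H2Aub covered between 44.6 and 71.2% of the HoxB interval, with a median of 60.3% over the 11 libraries. Every member carried a peak on its body in 11 of 11 libraries, whereas 4.51% of all genes and 6.76% of the 21887 protein-coding genes had a peak in the body or its flanks in all 11. Of the interval, 35514 bp (20.4%) lay under a peak in every library and 37448 bp (21.5%) in none. Among the bases covered in any library, 26.0% were covered in all 11 libraries in HoxB, and 1.87% were across the genome.

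**Figure D1:**
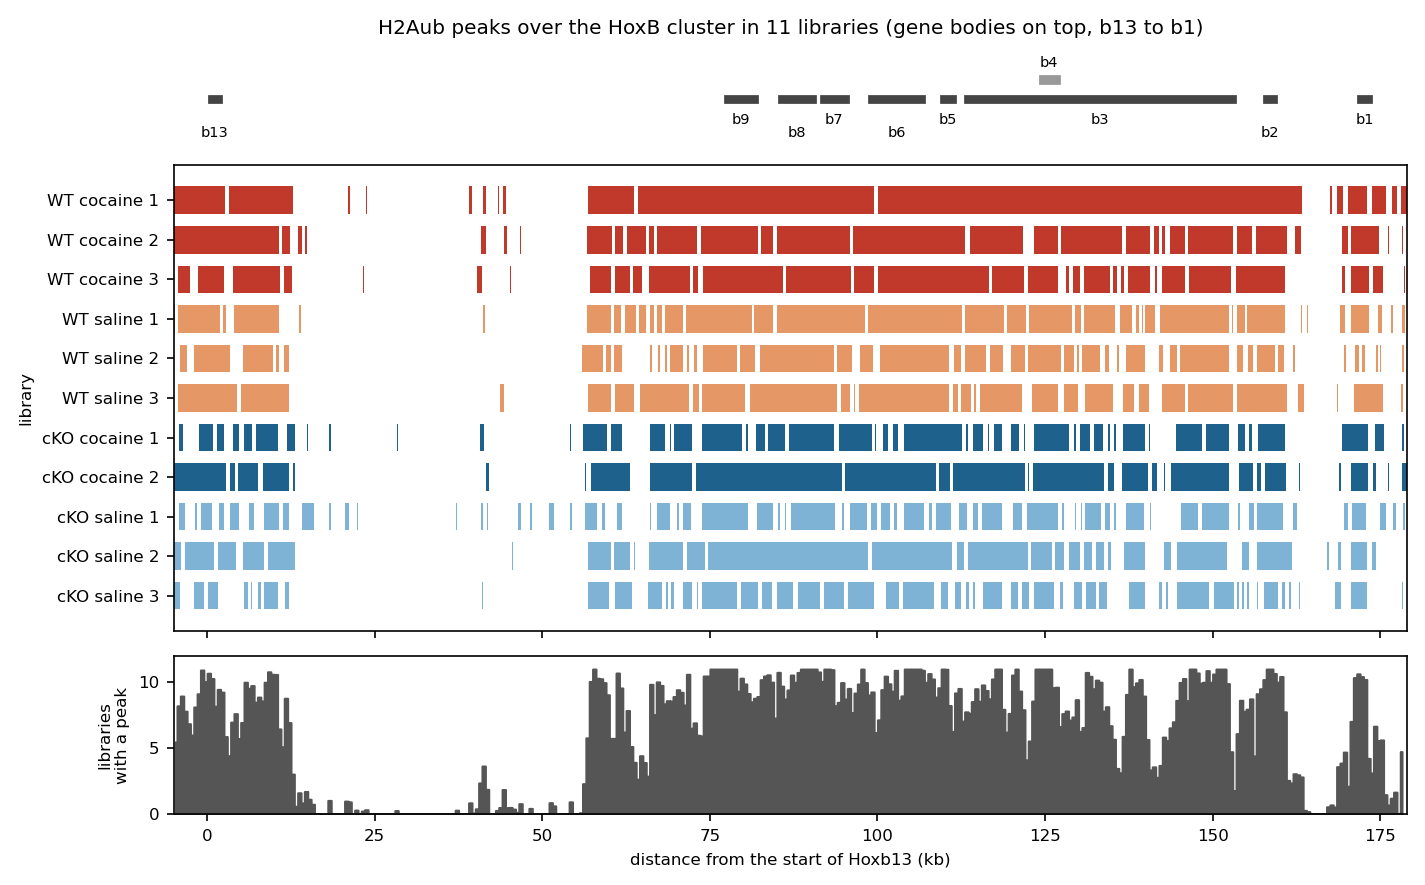
H2Aub peaks (filled bars) of each library along the HoxB cluster, with gene bodies drawn on top and, below, the mean number of libraries with a peak in 500-bp bins; the x axis is the distance from the start of Hoxb13 in kb. A block around Hoxb13 and a long block from upstream of Hoxb9 to beyond Hoxb2 recur in the 11 libraries, with a sparsely covered stretch between them and a separate small block at Hoxb1.

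The covered sequence fell into 3 blocks. The first lay around Hoxb13, the second ran from the intergenic side of Hoxb9 past Hoxb2, and the third lay at Hoxb1. The 74719 bp between Hoxb13 and Hoxb9 had a smaller share covered than the genes, with 22.8 to 42.1% covered and a median of 33.7%. This stretch contained the longest run without a peak in any library, 8617 bp at chr11:96222751-96231367. Between Hoxb2 and Hoxb1 a further 2937 bp, chr11:96358517-96361453, had no peak in any list.

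The longest run covered in all 11 libraries was 4301 bp at chr11:96269081-96273381, which reaches into the body of Hoxb9. The next were 3263 bp over Hoxb8 and Hoxb7, 3066 bp within Hoxb6 and 2612 bp over Hoxb4, whose body lies inside that of Hoxb3. Each of these runs thus touched at least 1 member, and the 48 runs common to all libraries together formed the 20.4% of the interval given above.

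When peaks less than 2 kb apart were chained, the border of the main block beyond Hoxb2 lay between 96355124 and 96357955 on chromosome 11, a spread of 2831 bp over the 11 libraries, on the Hoxb1 side of the end of Hoxb2 at 96354020. With chaining over 5 kb it lay between 96355124 and 96376917, a spread of 21793 bp, and passed Hoxb1 in WT cocaine 1, WT saline 1 and WT saline 3. The position of the opposite border depended on the distance over which peaks were chained. At 2 kb it lay at 96250937 to 96251473 in the 3 WT cocaine libraries and in WT saline 1 and 3, near the start of the non-coding gene Gm53 at 96251660, and at 96260121 to 96260425 in WT saline 2 and in all 5 cKO libraries. At 1 kb it moved to 96260234 in WT cocaine 3, to 96265234 in cKO saline 3 and to 96268192 and 96268189 in cKO cocaine 1 and cKO saline 1, so that this split was not kept. At 5 kb it was at 96250267 to 96251473 in the 9 lists other than the cKO libraries numbered 1. The split at 2 kb was noticed after the values were seen and was given no test. Bases covered in at least 5 of the 6 WT libraries and in no cKO library made up 0.838% of the HoxB bases covered in at least 5 WT libraries, and 1.79% of such bases across the genome.

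Hoxb13, the most posterior member, known for its role in the prostate and tail, lies 74.719 kb from its nearest neighbour in the cluster and varied most between libraries. Peaks covered 95.1, 100 and 75.7% of its body and flanks in WT cocaine libraries 1, 2 and 3, and 84.7, 68.9 and 89.7% in WT saline. The cKO values were 47.7 and 91.2% after cocaine and 44.6, 82.2 and 37.8% after saline. The low values thus came from the cKO libraries numbered 1 and from cKO saline 3, while cKO cocaine 2 and cKO saline 2 lay within the range of WT.

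Hoxb9, Hoxb8, Hoxb7 and Hoxb6, which pattern the trunk (Hoxb9 acts in the thoracic skeleton, and Hoxb8 is also known from the lineage of microglia), had the highest covered shares of the cluster. Hoxb8 had the highest median of the cluster, 93.2%, and ranked at position 11 of the 21887 protein-coding genes by this measure. Its share in WT was 100, 92.6 and 96.4% after cocaine and 94.3, 93.2 and 91.5% after saline, and in cKO it was 79.5 and 97.0% after cocaine and 66.3, 100 and 80.9% after saline. Hoxb6, Hoxb7 and Hoxb9 had medians of 91.5, 91.4 and 89.4% and ranked at positions 17, 18 and 24. The medians of these neighbours lay closer together than the SD over libraries of each gene, which was 8.86 points for Hoxb7 and 11.5 points for Hoxb6. The genes are read in the same libraries and were not compared within them, so this SD cannot settle whether they differ. Their windows overlap, so they share peaks.

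Hoxb5, Hoxb4 and Hoxb3 are used further forward, in the neck and the hindbrain, and Hoxb4 is well known from blood stem cells. They had medians of 88.8, 80.0 and 79.3%. For Hoxb3, the longest gene of the cluster with a body of 40830 bp, the values were 100, 86.7 and 85.2% in WT cocaine and 87.5, 72.6 and 79.3% in WT saline. In cKO they were 64.4 and 82.1% after cocaine and 59.3, 73.2 and 56.3% after saline. WT cocaine 1 covered the whole window of Hoxb3, whose body was split into 8 to 16 peaks in the other libraries.

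Hoxb2 and Hoxb1, which specify segments of the hindbrain, had the lowest covered shares, with medians of 51.2 and 38.4%. For Hoxb2 the share in WT was 89.5, 70.3 and 63.5% after cocaine and 58.4, 45.9 and 74.0% after saline, and in cKO it was 46.6 and 48.9% after cocaine and 45.1, 51.2 and 41.4% after saline. For Hoxb1 the WT values were 61.7, 43.4 and 40.0% after cocaine and 39.5, 17.0 and 38.4% after saline, and the cKO values were 44.7 and 34.8% after cocaine and 34.2, 29.2 and 29.0% after saline. At Hoxb2 the mark lay on the gene itself, since its body was fully covered in 8 of 11 libraries. Even Hoxb1 ranked at position 187 of 21887, because 78.8% of the protein-coding genes had a median of 0 and 0.658% had a median of at least 50%.

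**Figure D2:**
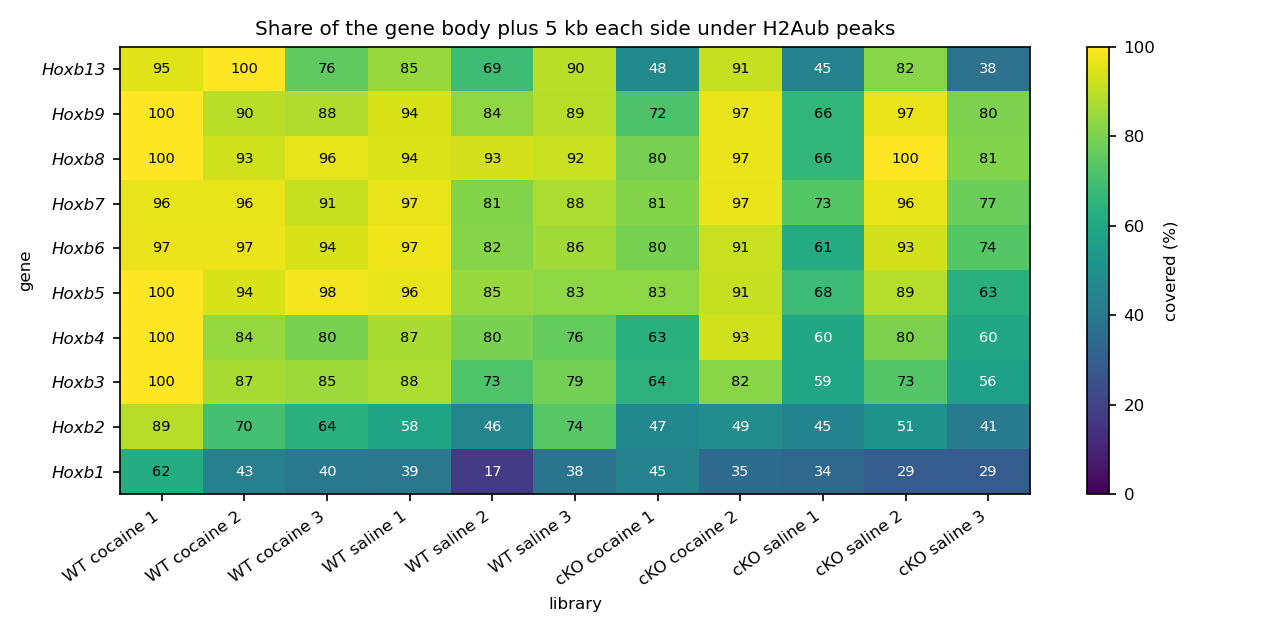
Share of each HoxB gene body plus 5 kb on each side that lay under H2Aub peaks (%, colour and number) in each of the 11 libraries; genes are ordered from Hoxb13 to Hoxb1 along the chromosome. Hoxb9 to Hoxb5 stayed above 60% in every library, while Hoxb2 and Hoxb1 had the lowest medians, 51.2 and 38.4%.

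The strongest fold enrichment over input on a member body was between 3.67 and 5.84 in the 9 other lists, a narrow range for all 10 members. The cKO libraries numbered 1 went beyond it. At Hoxb3 they reached 11.9 in cKO cocaine 1 and 14.4 in cKO saline 1, in peaks of 365 and 372 bp that overlapped a weaker peak in 5 of the other 9 lists. They also shared a peak at chr11:96212548-96212830 between Hoxb13 and Hoxb9, with a fold of 12.4 in cKO cocaine 1 and 10.6 in cKO saline 1, at a place with no peak in the other 9. When each list was cut to its 7271 peaks with the highest significance, 13.3 and 21.5 kb of HoxB remained in these libraries against 77.5 to 121 kb in the others.

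Coverage was compared between stretches of the cluster within each library, so that both values share its depth. The interval from Hoxb1 to Hoxb5 was less covered than that from Hoxb6 to Hoxb9, by 22.2 ± 6.79 percentage points (SD, n = 11). This held in 11 of 11 libraries (exact sign-flip permutation test, two-sided, p = 0.000977, the smallest that 11 libraries can give). The first interval includes the sequence between Hoxb2 and Hoxb1, where a run of 2937 bp had no peak in any list. The difference without that sequence was not measured, so the value describes intervals and not gene bodies. The medians were 70.0% (51.7 to 90.3%) for Hoxb1 to Hoxb5 and 94.4% (72.1 to 98.4%) for Hoxb6 to Hoxb9. The smallest difference, -7.90 points, was in WT cocaine 1. Without the cKO libraries numbered 1 the mean difference was -22.7 points.

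HoxB as a whole was covered less than the other Hox clusters in every library. The mean difference was -25.7 ± 6.001 points to HoxA, -15.8 ± 7.40 points to HoxC and -16.5 ± 4.01 points to HoxD (SD, n = 11), each with p = 0.000977 by the exact sign-flip permutation test. The HoxB interval includes the long stretch between Hoxb13 and Hoxb9, and when it was measured from Hoxb9 to Hoxb1 the mean difference became 2.39 points to HoxC (exact p = 0.213) and 1.67 points to HoxD (exact p = 0.187), while it stayed at -7.55 points to HoxA (exact p = 0.00195). Over the whole interval and without the cKO libraries numbered 1, the differences to HoxA, HoxC and HoxD were -28.0, -17.8 and -17.4 points. Without that stretch the differences to HoxC and HoxD thus changed sign and did not pass 0.05, while the difference to HoxA kept its sign and passed.

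**Figure D3:**
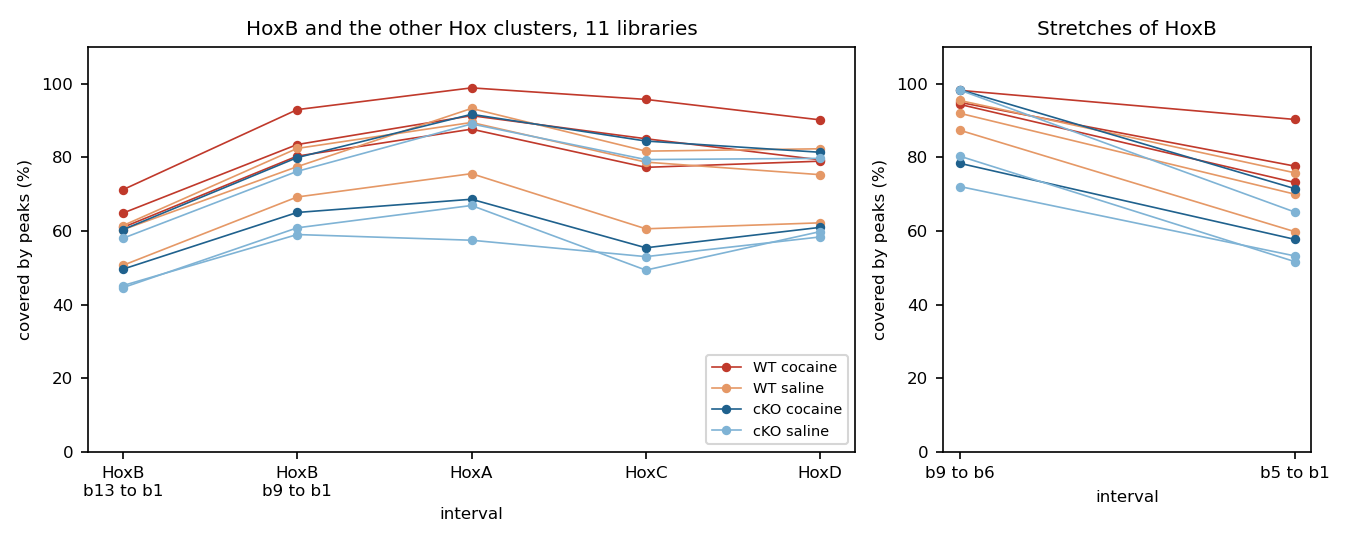
Share of each Hox cluster under H2Aub peaks (%, left) and of 2 stretches of HoxB (right), with 1 line per library coloured by group. Every library lies lower for the whole HoxB interval (b13 to b1) than for HoxA, HoxC and HoxD. This does not hold for b9 to b1, where cKO saline 3 has 60.8%, above its 49.4% for HoxC. Every library also lies lower for Hoxb5 to Hoxb1 (median 70.0%) than for Hoxb9 to Hoxb6 (median 94.4%).

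The comparison of cocaine with saline asked whether repeated cocaine goes with more H2Aub over the cluster. In WT, peaks covered 123.8, 112.8 and 106.0 kb of HoxB after cocaine and 106.9, 88.1 and 105 kb after saline, or 114 ± 8.99 against 99.97 ± 10.3 kb (SD, n = 3 each). The difference was 14.2 ± 7.91 kb (SE), and the groups overlapped, since cocaine 3 lay below saline 1. It was 8.31 kb without WT saline 2 and 9.43 kb without WT cocaine 1. The exact permutation test gave p = 0.20, and 0.60 after Benjamini-Hochberg adjustment over 12 comparisons. With 3 against 3 or 2 against 3 libraries its smallest possible p is 0.10, so none of the 12 could pass 0.05.

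The number of peaks in the cluster was 15, 29 and 30 in WT cocaine and 33, 43 and 27 in WT saline, a difference of -9.67 ± 6.72 (SE, exact permutation p = 0.30). It was -4.83 without WT cocaine 1, -5.33 without WT saline 2, and -2 when peaks up to 1 kb apart were joined. The larger mean covered length of WT cocaine thus came with a smaller mean number of peaks. The widest HoxB peak measured 63.4, 17.8 and 16.5 kb in WT cocaine and 14.0, 11.1 and 13.5 kb in WT saline, and here the groups did not overlap (difference 19.7 ± 15.4 kb, SE, exact p = 0.10, adjusted p = 0.60). The size of this difference rested on WT cocaine 1, without which it was 4.29 kb. When peaks up to 1 kb apart were joined, the widest measured 106.6, 65.1 and 61.1 kb after cocaine and 104.2, 30.1 and 64.8 kb after saline, so that the groups overlapped (difference 11.2 kb, exact p = 0.70). The 63.4-kb peak of that library ran unbroken from within Hoxb6 over Hoxb5, Hoxb4, Hoxb3 and Hoxb2, and was the widest but 2 in its list, in which the widest measured 69.9 kb. In WT cocaine 2 the widest peak lay at Hoxb13, and in WT cocaine 3 it covered Hoxb5 and parts of Hoxb6 and Hoxb3.

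In cKO, peaks covered 86.3 and 105 kb after cocaine and 78.5, 100.9 and 77.5 kb after saline, or 95.6 ± 13.2 (n = 2) against 85.6 ± 13.2 kb (SD, n = 3). The difference of 9.99 ± 12.1 kb (SE) was smaller than its error, the groups overlapped, and the exact permutation p was 0.50. It was 0.645 kb without cKO cocaine 2 and 19.3 kb without cKO cocaine 1. Without both libraries numbered 1 it was 15.8 kb, with 1 cocaine library left, and the differences in peak number and widest peak given next were -12.5 peaks and 7.34 kb. Peak numbers were 46 and 27 after cocaine and 58, 29 and 50 after saline (difference -9.17, exact p = 0.50). The widest peaks measured 8.71 and 21.9 kb against 6.87, 23.8 and 5.19 kb (difference 3.32 kb, or 15.1 kb with peaks up to 1 kb apart joined, exact p = 0.70 without joining). In cKO cocaine 2 the widest peak ran from Hoxb9 over Hoxb8 into Hoxb7, and in cKO saline 2 it ran from Hoxb9 to the edge of Hoxb6. The cocaine effect on the covered length in cKO minus that in WT was -4.26 kb, with p = 0.78 in an exact permutation of treatment within genotype, and it was 1.53 kb without the libraries numbered 1.

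**Figure D4:**
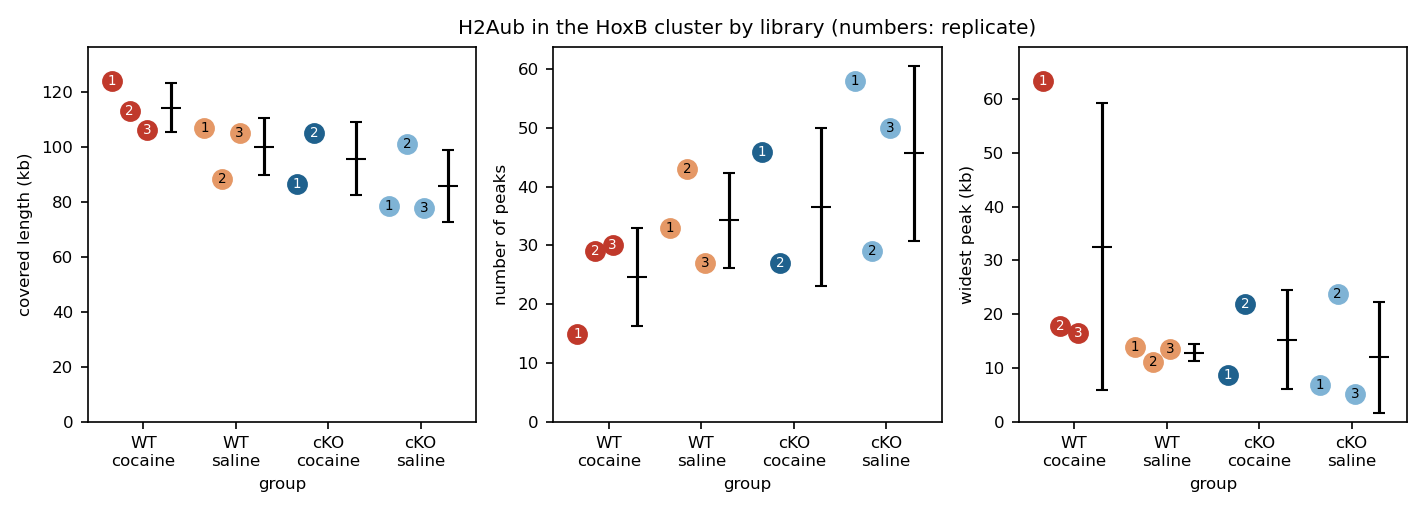
Covered length (kb), number of peaks and widest peak (kb) of the HoxB cluster in each library (points, with the replicate number) by group, with the group mean and SD beside them (bars). The widest peak of the 3 WT cocaine libraries lies above those of the 3 WT saline libraries, and covered lengths of the treatments overlap within each genotype.

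Between genotypes, the mean covered length was lower in cKO under both treatments. After saline it was 85.6 kb in cKO and 99.97 kb in WT, a difference of -14.3 ± 9.68 kb (SE, exact permutation p = 0.20), and cKO saline 2 lay within the range of WT. After cocaine it was 95.6 and 114 kb, a difference of -18.6 ± 10.7 kb (SE, exact p = 0.20, adjusted p = 0.60). These groups did not overlap, but the nearest libraries, cKO cocaine 2 and WT cocaine 3, were 105 and 106.0 kb. Without the cKO libraries numbered 1 the differences were -10.8 kb after saline and -9.24 kb after cocaine. With 7271 peaks per list and these libraries included, they were -32.0 and -53.2 kb. In the cut lists 21.5 kb of HoxB remained in cKO saline 1 and 13.3 kb in cKO cocaine 1. The other cKO libraries kept 100.5 and 77.5 kb after saline and 103.8 kb after cocaine. WT kept 88.0 to 104.6 kb after saline and 104.5 to 121.1 kb after cocaine. The larger differences thus rested on the cKO libraries numbered 1. The mean number of peaks was higher in cKO, by 11.3 ± 9.83 after saline and 11.8 ± 10.7 after cocaine (SE, exact p = 0.30 and 0.50). Without the cKO libraries numbered 1 these differences were 5.17 and 2.33, and with 7271 peaks per list they turned to -3 and -5.83. The latter include cKO saline 1 and cKO cocaine 1, in which 7 and 4 peaks of the cluster were left. The widest peak differed by -0.883 ± 6.02 kb after saline and -17.3 ± 16.8 kb after cocaine (SE, exact p = 1 and 0.70). Without the cKO libraries numbered 1 the values were 1.66 and -10.7 kb, and with joined peaks -28.5 and -24.5 kb. Without WT cocaine 1 the difference after cocaine was -1.86 kb.

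List length was set beside these values. HoxB took 0.718, 0.752 and 1.02% of the length of the WT cocaine lists and 0.963, 1.59 and 1.25% of the WT saline lists, so relative to the whole list the cluster held less in WT cocaine (difference -0.435 points, exact p = 0.20). In cKO it took 0.406 and 0.950% after cocaine and 0.285, 1.32 and 1.83% after saline. The share was lowest in the cKO libraries numbered 1 and highest in cKO saline 3, the shortest list. Depth and the amount of the mark cannot be told apart in these lists, nor can fewer cells with the mark be told from less of it per cell.

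Member by member, a difference was called where the covered lengths of the groups did not overlap. In WT, Hoxb1 was the 1 of 10 members called higher after cocaine, where 13.1% of the 15123 genes tested were higher and 0.291% lower, so that the count lies near the background. Its covered length was 6050 bp after cocaine and 3957 bp after saline (difference 2094 ± 1246 bp, SE, exact p = 0.10). The mean was higher after cocaine at 10 of 10 members, by 529 to 5508 bp with a median of 1156 bp. Over all genes tested 75.1% had a higher mean, with a median difference of 136 bp, and the members have longer covered stretches than most genes.

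In cKO, Hoxb1 was again the 1 member called higher after cocaine, beside 3.87% of the 27076 genes tested that were higher and 0.118% that were lower (4972 against 3855 bp, difference 1116 ± 657 bp, SE, exact p = 0.10). At 10 of 10 members the mean was higher after cocaine, as it was at 53.5% of the genes tested, with a median difference of 18.2 bp over them. Without the cKO libraries numbered 1 it was again 10 of 10 members, beside 74.7% of the genes tested and a median of 288 bp. Single libraries decided the counts of calls, and groups of fewer libraries also separate more easily. Without WT saline 1, 6 members were called higher after cocaine in WT, beside 25.0% of the genes tested. In cKO, 8 were called higher without cKO saline 2, beside 5.29%, and 7 without cKO cocaine 1, beside 9.25%. Without both cKO libraries numbered 1 it was also 7, but there 64.9% of the 10070 genes tested were called higher, so this count lies near the background.

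After saline no member was called between genotypes, beside 0.6% of the 25340 genes tested that were lower and 0.627% that were higher in cKO. The mean was lower in cKO at 10 of 10 members, with a median difference of -1764 bp, whereas 84.4% of the genes tested had a higher mean in cKO and the median over them was 102 bp. Without cKO saline 1 the mean was still lower at 10 of 10 members, but the genes tested turned, with 24.8% higher in cKO and a median of -85.3 bp. The largest shift in share was at Hoxb13, -26.2 points, and the smallest at Hoxb1, -0.810 points. Without cKO saline 1 no member was called either, beside 8.60% of the 12459 genes tested that were lower in cKO and 1.42% that were higher. Without cKO saline 2, 9 members were called lower, beside 1.75%, and without WT saline 2, 4 were, beside 2.59%.

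After cocaine 4 of 10 members, Hoxb6, Hoxb5, Hoxb3 and Hoxb2, were called lower in cKO, beside 3.21% of the 22058 genes tested that were lower and 5.88% that were higher. The mean was lower at 10 of 10 members, with a median difference of -1314 bp, whereas 71.6% of the genes tested had a higher mean in cKO, with a median of 90.5 bp. These members have overlapping flanks and lie next to each other, so the 4 calls are not independent. The difference was -8824 ± 5103 bp at Hoxb3, -3307 ± 973 bp at Hoxb2, -1949 ± 1095 bp at Hoxb6 and -1308 ± 568 bp at Hoxb5 (SE, exact p of 0.10 to 0.20). Hoxb2 had the largest shift in share, -26.7 points, with 46.6 and 48.9% in cKO against 63.5% or more in WT. Without cKO cocaine 1, 5 members were called lower and 1 higher, beside 19.7% of the 13980 genes tested that were lower and 16.2% that were higher, and the mean was lower at 5 of 10 members and higher at 28.5% of the genes tested, with a median of -108 bp over these genes. Without cKO cocaine 2, 9 members were called lower, beside 6.36% that were lower and 65.1% that were higher. When only gene bodies without flanks were read, 1 was called lower, beside 3.4%. No gene of the whole table passed adjustment over all genes in any of the 4 comparisons, and none could reach an unadjusted p below 0.05, with a smallest adjusted p of 0.744 for WT cocaine against WT saline and 0.678 for cKO cocaine against WT cocaine by the exact permutation test, and 1 for the others.

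**Figure D5:**
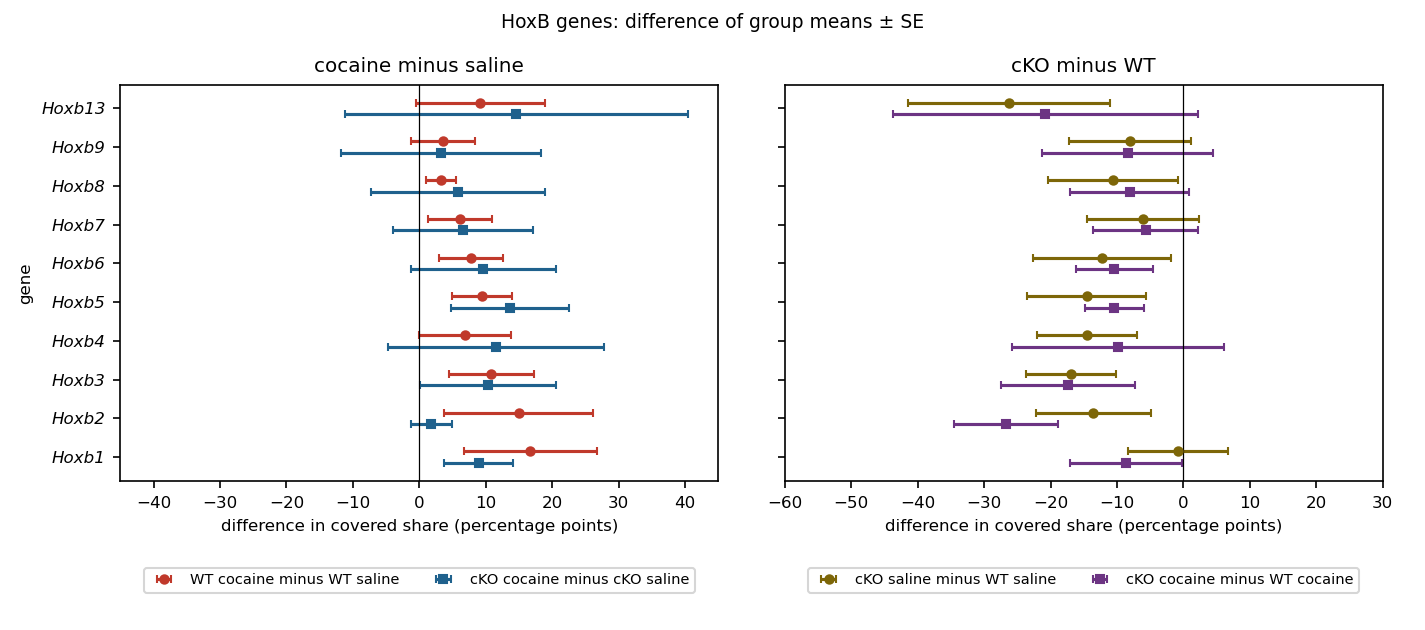
Difference of group means ± SE in the covered share of each HoxB gene body plus 5 kb each side (percentage points), for cocaine minus saline (left, WT circles and cKO squares) and cKO minus WT (right, saline circles and cocaine squares). All 10 members lie above 0 in both genotypes on the left and below 0 under both treatments on the right, and many error bars cross 0.

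The 2 sets of comparisons share libraries, so the 4 rows of differences are not independent of each other. Bases covered in all WT cocaine and in no WT saline library amounted to 733 bp in 6 runs, 0.560% of the HoxB bases covered in any WT library, where the genome had 1.8%. No HoxB base showed the reverse, as 0.0649% did across the genome. In cKO, 2200 bp were covered in both cocaine and no saline library, 1.75% of the bases covered in any cKO library and 1.36% across the genome, and 77 bp (0.0612%) were the other way, with 0.0411% across the genome. The cluster therefore held few bases that split the treatments in every library. Their shares were below those of the genome in WT and above them in cKO.

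The study selects peaks common to at least 2 libraries of a group and terms them H2Aub+ elements. Here overlapping peaks of a group were merged, and a merged region was kept where at least 2 libraries overlapped somewhere in it, so that parts of a region can lie under the peak of 1 library. In WT there were 6 after cocaine and 13 after saline, and in cKO 13 after cocaine and 17 after saline. The widest element of WT measured 107 kb after cocaine (chr11:96250951-96357713) and 57.8 kb after saline, and that of cKO measured 49.2 and 45.3 kb. Bases under peaks of at least 2 libraries amounted to 116 kb in 24 stretches in WT after cocaine and 103 kb in 37 stretches after saline, and in cKO to 77.8 kb in 48 stretches and 87.8 kb in 51 stretches. The cKO cocaine group has 2 libraries, which lowers its chance to reach 2, and elements have no replicates to test.

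The non-coding genes inside the cluster followed their surroundings. All 9 that the gene table places there, among them Mir10a beside Hoxb4 within the body of Hoxb3, Mir196a-1 between Hoxb13 and Hoxb9, and Hoxb5os and Hoxb3os, named as opposite-strand transcripts, had a peak in 11 of 11 libraries, with a median share of 75.3%. Median shares were 92.6% for Hoxb5os, 87.1% for Mir196a-1, 80.8% for Mir10a, 71.5% for Hoxb3os and 63.7% for Gm53. In WT, 1 of the 9 was called higher after cocaine than after saline, beside 13.1% of all genes tested, and 4 were called lower in cKO than in WT after cocaine, beside 3.21%. Several of them lie within or next to members and share their peaks.

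The covered shares of neighbouring genes outside the cluster were lower. Of 12 neighbouring genes found in the table, 4 had a peak in all libraries, and their median shares were 13.6% for Igf2bp1, 9.66% for Ttll6, 2.73% for Skap1 and 1.97% for Calcoco2. Atp5g1, Cbx1 and Nfe2l1 had no peak in any list. Among those found, Ttll6 lies nearest to Hoxb13 and Skap1 nearest to Hoxb1, and their shares were low. Both lie away from the members, with Ttll6 ending at 96166182 and Skap1 beginning at 96464570. The sequence just before Hoxb13, which begins at 96194316, was not bare. With chaining over 2 kb, the Hoxb13 block began between 96165480 and 96193143 over the 11 libraries. In WT cocaine it began at 96165480 to 96168637. With chaining over 5 kb the range over the libraries was 96159952 to 96188577. These borders were not tested.

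Among known upstream regulators of HoxB, 7 of 11 had a peak in all 11 libraries. The highest median share was 76.0% for Cdx2, a caudal-type factor that activates posterior Hox genes. Egr2, a hindbrain factor, had 32.4%, and the retinoic acid-degrading enzymes Cyp26a1, Cyp26b1 and Cyp26c1 had 42.8, 35.7 and 26.0%. Of these regulators, 8 of 11 were called higher after cocaine in WT, beside the 13.1% of all genes given above. In cKO 0 were called between treatments, beside 3.87% higher and 0.118% lower. After cocaine 2 were called lower in cKO than in WT, beside 3.21%. The cKO counts include the longest list of each cKO group, and the regulators were not counted without these lists. The share of all genes called higher in cKO moved widely without them, as given above. The 0 in cKO thus cannot be set against the 8 in WT as a difference between genotypes. Of 9 DNA-binding partners of Hox proteins in the Pbx, Meis and Pknox families, Meis2 and Meis1 had a peak in all libraries, with medians of 7.70 and 5.80%.

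The genes whose covered share followed that of HoxB most closely over the 11 libraries were Gm34298 (Pearson r = 0.980), Tbx15 (0.973), Hmx3 (0.968), Hoxc5 (0.961) and Alx1 (0.958). They were the 5 highest of 4623 protein-coding genes with a peak in at least 6 libraries, over which the median r was 0.0369 and 56 genes exceeded 0.9. Over the 9 libraries other than the cKO libraries numbered 1 the median r was 0.633, and these genes had r of 0.974, 0.962, 0.962, 0.941 and 0.938 and ranked at positions 2, 12, 13, 68 and 74. Tbx15, Hmx3, Hoxc5 and Alx1 encode developmental transcription factors, and Gm34298 lies next to Alx1. All points share the depth and list length of their libraries, so the values are a description of likeness in these lists.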

How the data were processed

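Reads were mapped by the authors to mm10 with Bowtie2 (2.3.4.1) and handled with SAMtools (version 1), and broad peaks were called in each library with MACS2 (2.1.1.20160309.3) over total input, as the labels and the study's methods say. The deposited lists give peak positions, a score, the fold enrichment over input (a linear ratio), and −log10 p-values and q-values. No read counts were given, so depth is unknown. All deposited peaks were used. The 4 input libraries were not analysed here. Genes came from a GRCm38.p6 table (mm10 coordinates, no strand), joined by position, with an overlap of at least 1 bp. Libraries were the unit of replication. Two-sided exact permutation tests compared groups, and stretches were compared within libraries by exact sign-flip permutation tests, with Python 3.11.15 and numpy 2.4.6. The code was tested on simulated data. Every member was named. Other genes came from fixed lists (neighbours, non-coding genes inside the cluster, binding partners, regulators) or from the 5 highest Pearson r to HoxB. The members and lists were chosen with earlier results of these data known. Alternatives were q at most 0.05 or 0.01, flanks of 0 or 2 kb, another interval, lists of equal length, peaks up to 1 kb apart joined, the replicate number as a block and leaving out libraries. Shares of all genes called in each of these settings were added after seeing the data. Whether same-numbered libraries deviated together was checked. Those of WT did not, with correlations of -0.0108 to 0.0294, and cKO had only 2 pairs, with 0.187 and 0.210, so the numbers were not used to pair samples. No sequence is printed, since no table of sequences was used here. The values of 1 gene of the regulator list are not reported here.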

Additional observations from a re-analysis of the deposited data

How the results depend on the processing

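None of the 12 comparisons between groups could pass 0.05, so the alternatives bear on their direction and size. Of 292 recomputed values for 21 results, 253 kept their direction and their side of the threshold, or stayed within 1.5 times for counts. As a percentage of list length, the covered length turned to -0.435 points for cocaine minus saline in WT and -0.465 in cKO. With 7271 peaks per list, cKO cocaine minus cKO saline turned to -7.96 kb (-6.74 kb from Hoxb9 to Hoxb1, chosen after seeing the data), and the peak number turned to -5.83 for cKO minus WT after cocaine and -3 after saline. In these cut lists cKO cocaine 1 and cKO saline 1 kept 13.3 and 21.5 kb of HoxB. From Hoxb9 to Hoxb1, HoxB minus HoxC was 2.39 points and HoxB minus HoxD 1.67 points, through leaving out the stretch before Hoxb9. The treatment effect in cKO minus that in WT turned to 1.60 kb at q at most 0.01 and 1.53 kb without the cKO libraries numbered 1, where the widest peak of cKO minus WT after saline was 1.66 kb. The causes of the other reversals were not tested.

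Counts of members called, in either direction, moved as follows. For cKO against WT after cocaine it was 1 with no flank and 2 with flanks of 2 kb; after saline it was 2 and 1. For cocaine against saline in cKO it was 2 with no flank, 0 at either q limit and with equal lists, and 7 without the cKO libraries numbered 1. Leaving out each library gave 1 to 6 calls for WT cocaine against saline, 1 to 8 for cKO cocaine against saline, 0 to 9 for cKO against WT after saline and 4 to 9 after cocaine. It gave -13.6 to 5.09 kb for the difference between treatment effects, turned by leaving out WT cocaine 1, WT saline 2, cKO cocaine 1 or cKO saline 2. For cocaine minus saline in cKO it gave -18.7 to 0.333 peaks, turned by leaving out cKO cocaine 2, and -3.25 to 9.88 kb for the widest peak, turned without cKO cocaine 2 or cKO saline 3. For cKO minus WT after saline the widest peak ran from -6.82 to 2.51 kb, turned without cKO saline 1 or 3. For WT cocaine minus saline it ran from 4.29 to 27.7 kb.

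Groups share replicate numbers, but same-numbered WT libraries did not deviate together over genes (r of 0.0294, -0.0108 and 0.0184), and cKO has only 2 pairs (0.210 and 0.187). With the replicate number as a block, the widest peak of cKO cocaine minus cKO saline was -0.074 kb, over the 2 shared numbers, and the other differences kept their direction.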
